A study of Mus musculus with 24 samples.

Results

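Galectins and the galectin-binding glycoprotein Lgals3bp were measured in whole liver of C57BL/6J mice after 20 weeks on a high-fat diet (FFD) or a control diet. The members were the 6 genes with the symbols Lgals1, Lgals3, Lgals3bp, Lgals4, Lgals8 and Lgals9, chosen by name from 56205 Ensembl genes, and all 6 passed the filter on low counts. RNA-Seq of poly(A)-selected RNA gave 12 libraries per diet, labelled replicates 1 to 12 for either diet. The mice were of both sexes, 6 per diet and sex by the study's design, and young adults when feeding began by its methods, and no allele or drug is named for either diet. The labels name the FFD only as a high-fat diet. Whole-liver RNA mixes all cells of the organ, so more cells of a type and more RNA per cell cannot be told apart in any value here.

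Galectins are small soluble lectins that bind beta-galactosides on glycoproteins and glycolipids and crosslink them at the cell surface, and several also bind exposed glycans inside damaged vesicles. They fall into prototype members with a single carbohydrate-recognition domain (Lgals1), a chimera with a collagen-like tail that can form oligomers (Lgals3), and tandem-repeat members with linked domains (Lgals4, Lgals8 and Lgals9). Lgals3bp is not a lectin of this family but a secreted, heavily glycosylated ligand of galectins. In liver, galectin-3 is known as a product of macrophages and is widely studied in fibrosis.

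Depth ranged from 14468418 to 22112552 counts on genes per library. Libraries of a diet were not alike beyond the diet. The X-linked Xist RNA had 2664 to 6285 counts, over 1000, in replicates 1 to 6 of both diets. It had 0 to 3 counts, under 1000, in replicates 7 to 12. The Y-linked Ddx3y had 0 counts in every library of the first set and 448 to 1016 in the second. Each set holds 6 libraries per diet. These counts divide the libraries as sex would, but the labels assign no sex to a library, so the sets are named by Xist and not treated as labelled conditions. TMM scaling factors ran from 0.679 (control replicate 10, also the shallowest library) to 1.34 (FFD replicate 9, which had the highest summed cholangiocyte markers, 221 CPM). CPM are edgeR's counts per size of library, with each total multiplied by its TMM factor. FFD replicate 3 stood apart in summed neutrophil markers, at 169 CPM against at most 14.3 in the other libraries. Hepatocyte markers, with summed levels of 40640 to 140800 CPM, had the highest sums of all marker lists in every library, in keeping with the liver label.

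Lgals3, Lgals1 and Lgals3bp rose on the FFD, and no member was called lower. A gene counted as called when edgeR's quasi-likelihood test gave an adjusted p (Benjamini-Hochberg, over 17913 genes) no higher than 0.01 and its log2 fold change passed 0.5 in size. By this rule 3 of the 6 members were called higher, against 13.2% of all tested genes, and 0 were called lower, against 4.99%. The members were chosen with earlier results of these libraries known, so these shares are not independent evidence of a direction. DESeq2 and limma-voom also called 0 lower. At an unadjusted p under 0.05 the edgeR test had 2 members on the lower side, Lgals4 and Lgals9, and only Lgals4 had an adjusted p under 0.01, with too small a fold. TMM scaling centred the median of all genes at a log2 fold change of -0.03, and library totals alone put it at 0.26.

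**Figure D1:**
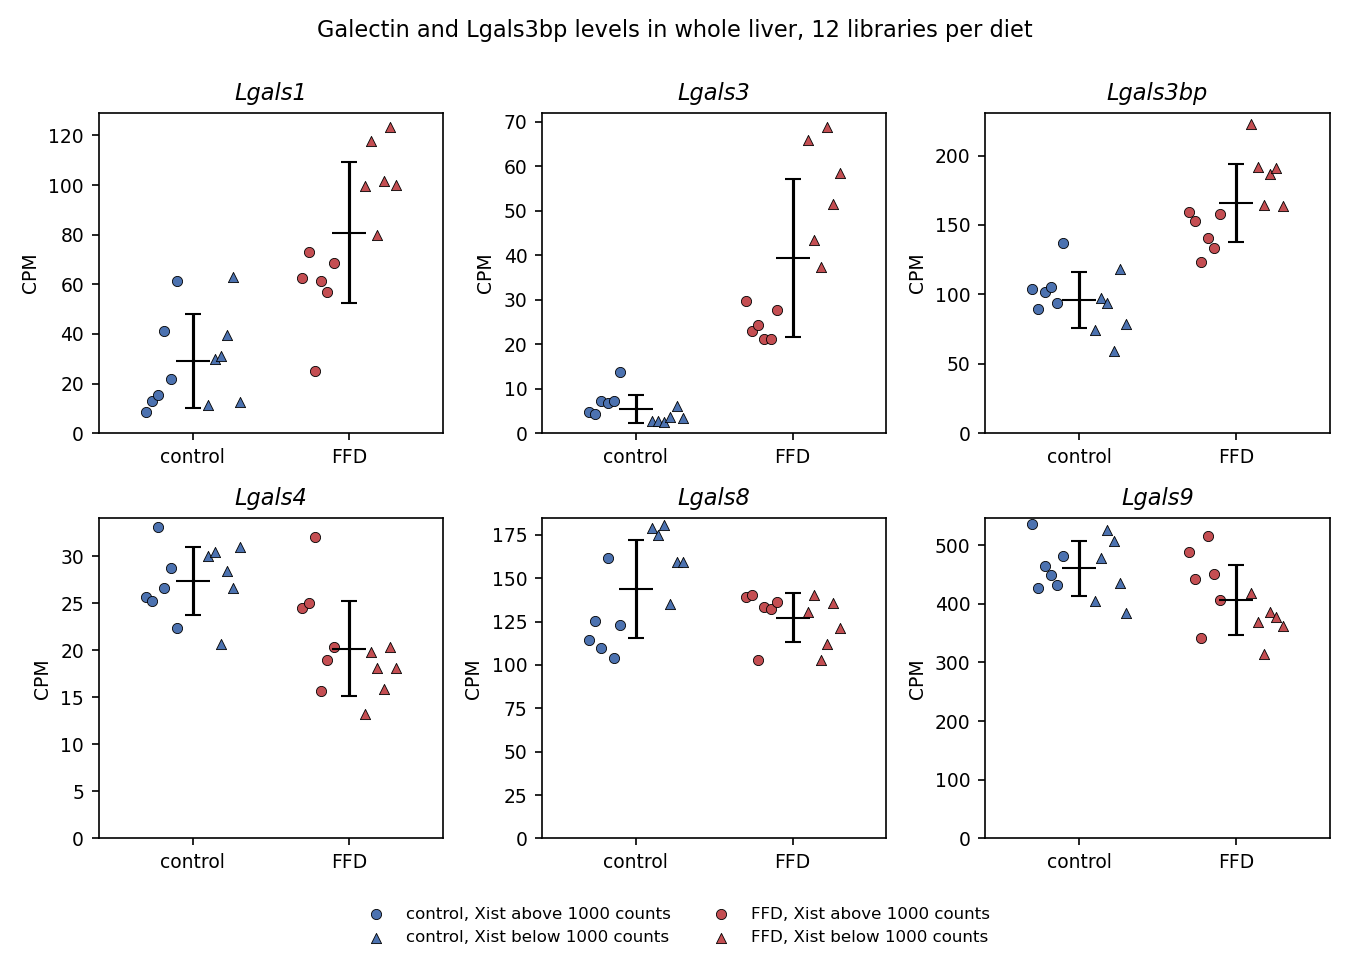
Level in CPM (linear axis from 0) of each member in the 12 control and 12 FFD libraries, with circles for libraries with Xist above 1000 counts, triangles for those below, and black bars for mean ± SD over 12 libraries. All 12 FFD libraries lie above all 12 control libraries for Lgals3, and 8 of 12 and 10 of 12 lie above the highest control library for Lgals1 and Lgals3bp.

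Lgals1 (ENSMUSG00000068220, chr15:78926725-78930465, plus strand, GRCm38) encodes galectin-1, a dimeric prototype galectin made by mesenchymal and immune cells. Control libraries ranged from 8.45 to 62.9 CPM with a median of 25.9, and FFD libraries from 25.2 to 123 with a median of 76.5. The diets overlapped: 8 of the 12 FFD libraries were above the highest control library, replicate 11, and the lowest FFD library was replicate 3. The mean was 29.0 ± 19.0 CPM (SD, n = 12) on the control diet and 80.9 ± 28.5 (SD, n = 12) on the FFD. The log2 fold change was 1.48 (standard error 0.30, edgeR adjusted p = 0.000454), a 2.79-fold rise. A two-sided permutation test of the mean log2(CPM + 1) with 100000 resamples gave p = 4e-05. The control libraries themselves were spread out, with replicate 1 lowest and replicate 11 highest.

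Lgals3 (ENSMUSG00000050335, chr14:47367751-47386160, plus strand) encodes galectin-3, the only chimera-type galectin. It ranged from 2.53 to 13.7 CPM with a median of 4.54 in control libraries and from 21.2 to 68.7 with a median of 33.6 in FFD libraries. All 12 FFD libraries were above all 12 control libraries, which held for 1.48% of tested genes (266 genes). The counts behind these values were 36 to 297 per control library and 380 to 1743 per FFD library. The mean rose from 5.43 ± 3.16 CPM (SD, n = 12) to 39.4 ± 17.8 (SD, n = 12). This was a log2 fold change of 2.85 (standard error 0.28, edgeR adjusted p = 1.65e-07), or 7.19-fold, and the permutation p was 2e-05, the smallest this number of resamples can give. The highest control library was replicate 6, and leaving it out gave the highest log2 fold change of the fits that left out 1 library, 3.06.

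Lgals3bp (ENSMUSG00000033880, chr11:118392751-118402092, minus strand) encodes the secreted galectin-3-binding protein, which is also known as an interferon-inducible gene. Levels ran from 59.3 to 137 CPM with a median of 95.7 on the control diet and from 123 to 223 with a median of 162 on the FFD. Only 2 FFD libraries were not above the highest control library, replicate 6, and 11 of 12 control libraries were below the lowest FFD library, replicate 3. From a mean of 96.0 ± 20.3 CPM (SD, n = 12) Lgals3bp rose to 166 ± 28.3 (SD, n = 12), 1.73-fold. Its log2 fold change of 0.79 had a standard error of 0.11 (edgeR adjusted p = 9.9e-06; permutation p = 2e-05, again the smallest possible). The size was below that of Lgals1 and Lgals3, while the replicates of a diet were closer together.

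Tandem-repeat galectins were not called in either direction. Lgals4 (ENSMUSG00000053964, chr7:28833854-28841708, plus strand), best known from the intestinal epithelium, was at 27.4 ± 3.60 CPM (SD, n = 12) on the control diet and 20.2 ± 5.06 (SD, n = 12) on the FFD. Control libraries ranged from 20.7 to 33.1 with a median of 27.5, and FFD libraries from 13.2 to 32.1 with a median of 19.4. In 9 of 12 FFD libraries Lgals4 was below the lowest control library, and the highest FFD library was replicate 3. The log2 fold change was -0.44 (standard error 0.11, edgeR adjusted p = 0.0027; permutation p = 0.00068), short of the fold needed for a call. Without FFD replicate 3 it was -0.52 and Lgals4 was called lower, and with library totals in place of TMM it was -0.16. Of 8 intestinal markers 3 passed the filter and 0 were called by edgeR, DESeq2 or limma-voom (2 at an unadjusted edgeR p under 0.05), Cdx2 and Lypd8 had 0 counts in every library, and their summed level was 59.1 to 258 CPM on the control diet and 68.8 to 149 on the FFD, mostly from Fabp2.

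Lgals8 (ENSMUSG00000057554, chr13:12439415-12464944, minus strand) encodes galectin-8, a sensor of damaged vesicles. It ranged from 104 to 181 CPM with a median of 147 in control libraries and from 103 to 141 with a median of 133 in FFD libraries, with wide overlap. The mean was 144 ± 28.3 CPM (SD, n = 12) on the control diet and 127 ± 14 on the FFD. The log2 fold change was -0.18 (standard error 0.10, edgeR adjusted p = 0.153; permutation p = 0.111). Its exons overlap those of Heatr1 on the other strand, and the sources do not say whether counting used strand, so reads of the 2 genes cannot be told apart there.

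Lgals9 (ENSMUSG00000001123, chr11:78962974-78984946, minus strand) encodes galectin-9, a ligand of the inhibitory receptor Havcr2 (TIM-3). Control libraries ranged from 385 to 535 CPM with a median of 456 and FFD libraries from 315 to 515 with a median of 396. The 2 ranges overlapped, with 5 FFD libraries below the lowest control library, and the means were 460.4 ± 47.0 CPM (SD, n = 12) and 406 ± 59.7. The log2 fold change was -0.18 (standard error 0.08, edgeR adjusted p = 0.0835; permutation p = 0.0201). With library totals in place of TMM the log2 fold changes of Lgals8 and Lgals9 were 0.11 and 0.10, so neither has a direction that holds across scalings.

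Per length, Lgals9 was the most abundant member on both diets. In CPM per kilobase of GENCODE M21 exon sequence, which may not be the annotation the authors counted with, mean control levels were 215 ± 21.97 (SD, n = 12) for Lgals9, 39.0 ± 7.68 for Lgals8, 33.7 ± 7.14 for Lgals3bp, 32.2 ± 21.0 for Lgals1, 11.8 ± 1.56 for Lgals4 and 2.92 ± 1.70 for Lgals3. Lgals8, Lgals3bp and Lgals1 lay within 1 SD of each other, and so did Lgals1 and Lgals4 by the wide SD of Lgals1. On the FFD the order of mean levels per kilobase became Lgals9 (190 ± 27.9), Lgals1 (89.5 ± 31.6), Lgals3bp (58.2 ± 9.93), Lgals8 (34.5 ± 3.80), Lgals3 (21.2 ± 9.58) and Lgals4 (8.72 ± 2.19). Lgals3 passed Lgals4 and Lgals1 passed Lgals8 in that order, and Lgals1 and Lgals3bp lay within 1 SD of Lgals1. As a share of all galectin counts, Lgals3bp left out, Lgals1 went from 4.17% ± 2.58 (SD, n = 12) to 11.7% ± 3.98 and Lgals3 from 0.802% ± 0.451 to 5.74% ± 2.50, while Lgals9 went from 67.6% ± 4.26 to 58.9% ± 5.24. Shares were not tested, and reads per gene scale with length in them.

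Other galectin genes added little RNA. The galectin-related Lgalsl was at 14.9 ± 2.67 CPM (SD, n = 12) on the control diet and 14.7 ± 2.16 on the FFD (log2 fold change -0.03, edgeR adjusted p = 0.836). Lgals2 had at most 6 counts in a library and was tested but not called (log2 fold change 0.90, standard error 0.69, edgeR adjusted p = 0.315). Lgals7 had at most 3 counts, Grifin at most 2 and Lgals12 at most 1, and these did not pass the filter. At this depth a difference in any of these genes could be missed. Lgals6 was not matched to a gene ID and was not analysed here.

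The size of the diet effect differed between the library sets for Lgals3. In the libraries with Xist above 1000 counts, Lgals3 was at 4.21 to 13.7 CPM with a median of 7.02 on the control diet and at 21.2 to 29.8 with a median of 23.6 on the FFD. In those with Xist below 1000 counts, it was at 2.53 to 6.06 with a median of 3.09 on the control diet and at 37.4 to 68.7 with a median of 54.9 on the FFD. The set with the lower control levels thus had the higher FFD levels, and its FFD libraries did not overlap those of the other set. Log2 fold changes were 1.74 (standard error 0.22, edgeR adjusted p = 0.000294) with Xist above and 3.96 (standard error 0.23, edgeR adjusted p = 1.98e-07) with Xist below. The difference of 2.21 (standard error 0.33) passed the test of the interaction itself (edgeR adjusted p = 0.000167), as it did for 2.57% of all tested genes in this direction and 1.47% in the other. On the control diet the set with Xist below was lower by a log2 difference of -1.07 (edgeR adjusted p = 0.00444), and on the FFD it was higher by 1.15 (edgeR adjusted p = 0.000846). An exact permutation test gave p = 0.00216 for the diet within either set, the smallest that 6 libraries against 6 allow.

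**Figure D2:**
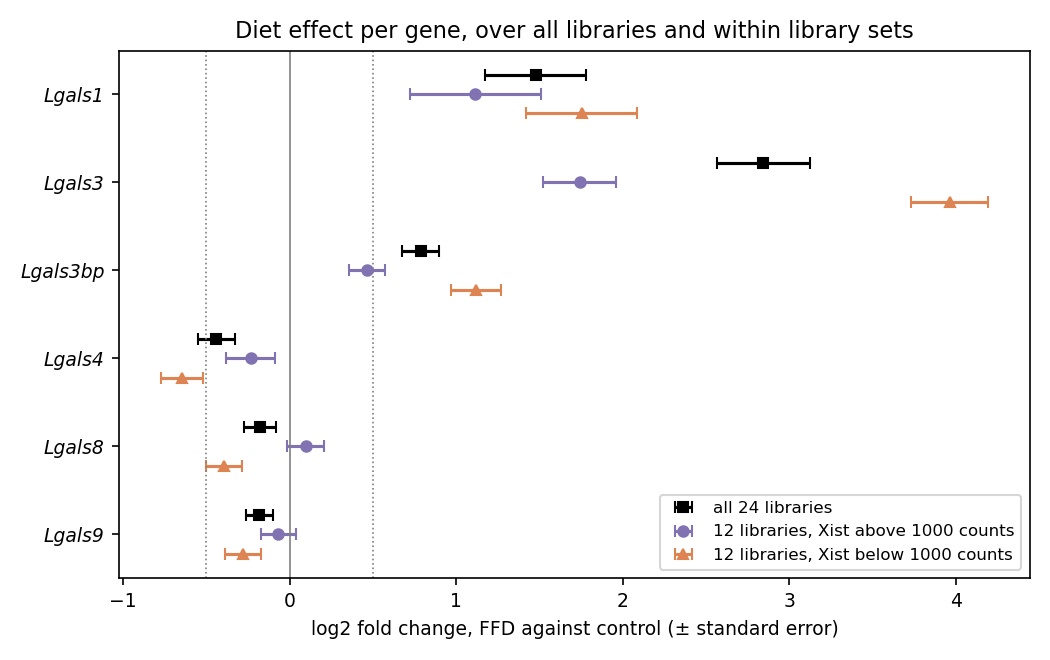
Log2 fold change of each member, FFD against control, with its standard error, over all 24 libraries (squares), over the 12 with Xist above 1000 counts (circles) and over the 12 with Xist below (triangles), with dotted lines at the fold threshold of 0.5 either way. Lgals3 has the widest gap between the sets, 1.74 against 3.96, and Lgals3bp the next, 0.47 against 1.12.

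The other members also moved more in the libraries with Xist below 1000 counts, but their differences did not pass the interaction test at 0.01. For Lgals3bp the log2 fold change was 0.47 (edgeR adjusted p = 0.0115) with Xist above and 1.12 (edgeR adjusted p = 5.92e-05) with Xist below, and the difference of 0.65 had an edgeR adjusted p of 0.0273 and a DESeq2 adjusted p of 0.00479. Lgals1 had 1.12 (edgeR adjusted p = 0.0697) and 1.75 (edgeR adjusted p = 0.000879), a difference of 0.63 (standard error 0.55, edgeR adjusted p = 0.535). In the set with Xist above, exact permutation tests of the diet gave p = 0.0195 for Lgals1 and p = 0.00649 for Lgals3bp. Lgals4 had -0.23 and -0.65 (difference -0.42, edgeR adjusted p = 0.205), and it was called lower in the set with Xist below. Lgals8 had 0.10 with Xist above and -0.40 with Xist below (difference -0.50, edgeR adjusted p = 0.0392). Its control libraries were at 123 ± 20.5 CPM (SD, n = 6) with Xist above and 165 ± 17.2 with Xist below (edgeR adjusted p = 0.0112), while its FFD libraries were at 131 ± 13.9 and 124 ± 14.5. Across all genes, 520 (2.9%) were called higher and 158 (0.882%) lower within the set with Xist above, against 2572 (14.4%) and 1431 (7.99%) within the other.

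Markers of macrophages and of activated stellate cells moved with the same contrast. Of 11 markers of lipid-associated and monocyte-derived macrophages, 10 were called higher and 1, the fatty acid-binding Fabp5, lower, with a median log2 fold change of 2.98. Their summed level was 84.7 to 321 CPM on the control diet and 368 to 1344 on the FFD. It ran from 368 to 473 in FFD libraries with Xist above 1000 counts and from 650 to 1344 in those with Xist below. Fabp5 had the highest control mean of the 11, 102 ± 77.4 CPM (SD), so the control sums rest largely on a gene called lower. Spp1 had the highest FFD mean of the 11, 268 ± 216 CPM (SD), so the FFD sums weigh that gene most. None of the 11 passed the interaction test at 0.01, and their median difference between the sets was 1.29, against -0.03 over all genes. Of 9 markers of activated stellate cells and myofibroblasts 7 were called higher, among them Col1a1 (log2 fold change 3.12) and Timp1 (3.62). The other 2, Acta2 (0.53, edgeR adjusted p = 0.03) and Tagln (0.47, edgeR adjusted p = 0.0532), were not called. The sum of the 9 was 48.5 to 245 CPM on the control diet and 221 to 702 on the FFD. No marker of these 2 lists was at 0 in all libraries. Of 8 hepatocyte markers 7 were called lower, and Cyp2e1 (log2 fold change -0.46, edgeR adjusted p = 0.0198) was lower but not called. Their sums were 90200 to 140800 CPM on the control diet and 40640 to 96820 on the FFD. The part of these cell types in the rise of Lgals1, Lgals3 and Lgals3bp was not tested.

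Of the remaining marker lists, Kupffer cell markers had 3 of 8 called higher (Cd5l, Folr2 and Adgre1) and Cd163, a scavenger receptor, lower. Not called were Clec4f (log2 fold change 0.20, edgeR adjusted p = 0.591), Timd4 (-0.74, edgeR adjusted p = 0.161), Vsig4 (0.38, edgeR adjusted p = 0.391) and Marco (0.88, edgeR adjusted p = 0.308). Sums of the Kupffer cell markers were 126 to 546 CPM on the control diet and 209 to 910 on the FFD. Neutrophil markers had 5 of 5 tested called higher, with sums of 1.73 to 7.20 and 6.23 to 169 CPM, and 4 were called without FFD replicate 3. Cholangiocyte markers had 5 of 7 called higher, with sums of 16.9 to 39.6 and 20.6 to 221 CPM. Within the set with Xist above 0 were called, where 2.9% of all genes were called higher. A larger diet effect in the set with Xist below passed the interaction test at 0.01 for 1 of the 7, against 2.57% of all genes. Quiescent stellate cell markers had 2 of 7 called higher (Ngfr and Des), and sinusoidal endothelial markers 1 of 6 (Stab2). T cell markers had 0 of 6 called and B cell markers 0 of 4, with no list sum above 10.9 CPM. DESeq2 and limma-voom called 0 of either list, and 2 T cell markers and 0 B cell markers had an unadjusted edgeR p under 0.05. Within the set with Xist below 4 T cell markers were called higher, where 14.4% of all genes were. For 2 of the 6 T cell markers the larger effect in that set passed the interaction test at 0.01, against 2.57% of all genes.

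Counter-receptors of galectins were called higher more often than lower. Of 25 counter-receptors and ligand proteins, 9 were called higher and 1 lower, against 13.2% and 4.99% of all genes, and the median log2 fold change was 0.63. The list was chosen with earlier results of these libraries known, so it is not independent evidence of its direction. Trem2, a lipid receptor of macrophages, also on the macrophage list, rose from 1.72 ± 1.38 CPM (SD, n = 12) to 19.4 ± 8.29 (log2 fold change 3.47, edgeR adjusted p = 1.83e-07). Among the called genes, the integrin chain Itgam (1.65), the hyaluronan receptor Cd44 (1.53), the sialoglycoprotein Spn (1.37), the galectin-9 receptor Havcr2 (1.37), the checkpoint protein Vsir (1.20), the phosphatase Ptprc (1.13) and the adhesion molecule Mcam (1.10) followed in log2 fold change. Lamc1, a laminin chain, had 0.63.

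Egfr, a growth factor receptor abundant in hepatocytes, was the one counter-receptor called lower, from 303 ± 170 CPM (SD, n = 12) to 105 ± 64.4 (log2 fold change -1.53, edgeR adjusted p = 0.00104). The abundant matrix protein Fn1 had a log2 fold change of -0.52 (edgeR adjusted p = 0.0122) and the lysosomal glycoproteins Lamp1 and Lamp2 had 0.20 and -0.45, none of them called. Lag3, a checkpoint receptor bound by galectin-3, was at 1.49 ± 1.49 CPM and 1.28 ± 0.673 (edgeR adjusted p = 0.746). Within the set with Xist above, 3 of the 25 were called higher and 0 lower, against 2.9% and 0.882% of all genes in that fit. A larger diet effect in the set with Xist below passed the interaction test at 0.01 for 3 of the 25, against 2.57% of all genes. These were Cd44 (difference 1.52, edgeR adjusted p = 0.00198), Ptprc (1.52, edgeR adjusted p = 0.000132) and Vsir (1.57, edgeR adjusted p = 8.09e-05). The others did not pass, among them Trem2 (1.75, edgeR adjusted p = 0.049).

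Enzymes that build or mask galectin ligands were mostly not called. The branching enzyme Mgat4a (log2 fold change 1.52), the bisecting enzyme Mgat3 (1.66) and the core-2 enzyme Gcnt1 (1.74) were called higher, 3 of 17 against 13.2% of all genes, and 0 were called lower by edgeR, DESeq2 or limma-voom (5 at an unadjusted edgeR p under 0.05). These 3 were scarce, with FFD means of 3.49 ± 0.483, 0.906 ± 0.618 and 1.93 ± 0.490 CPM (SD, n = 12). Mgat5, which adds the branch that galectin-3 binds best, went from 9.91 ± 3.09 to 11.7 ± 1.54 CPM (log2 fold change 0.24, edgeR adjusted p = 0.17). The sialyltransferase St6gal1, whose product masks galectin-1 ligands, had a log2 fold change of -0.15 (edgeR adjusted p = 0.285).

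Among 11 tested genes of the handling of damaged vesicles, in which galectin-3, galectin-8 and galectin-9 take part, 1 was called higher, against 13.2% of all genes. It was Trim16, a partner of galectin-3, which rose from 0.194 ± 0.142 to 0.733 ± 0.668 CPM (log2 fold change 1.93, edgeR adjusted p = 0.00154) and was removed by edgeR's default filter on low counts. The autophagy receptor Sqstm1 went from 402 ± 50.5 to 520 ± 48.4 CPM, under the fold threshold at a log2 fold change of 0.37 (edgeR adjusted p = 0.000492). Ulk1 (-0.43, edgeR adjusted p = 0.00486), Atg16l1 (-0.37, edgeR adjusted p = 0.000362) and Optn (-0.24, edgeR adjusted p = 0.00257) were lower, also under the fold threshold. At an unadjusted edgeR p under 0.05, 3 of the 11 were higher and 5 lower, and 0 were called lower. Calcoco2, a partner of galectin-8, had 0 counts in every library and was not tested.

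**Figure D3:**
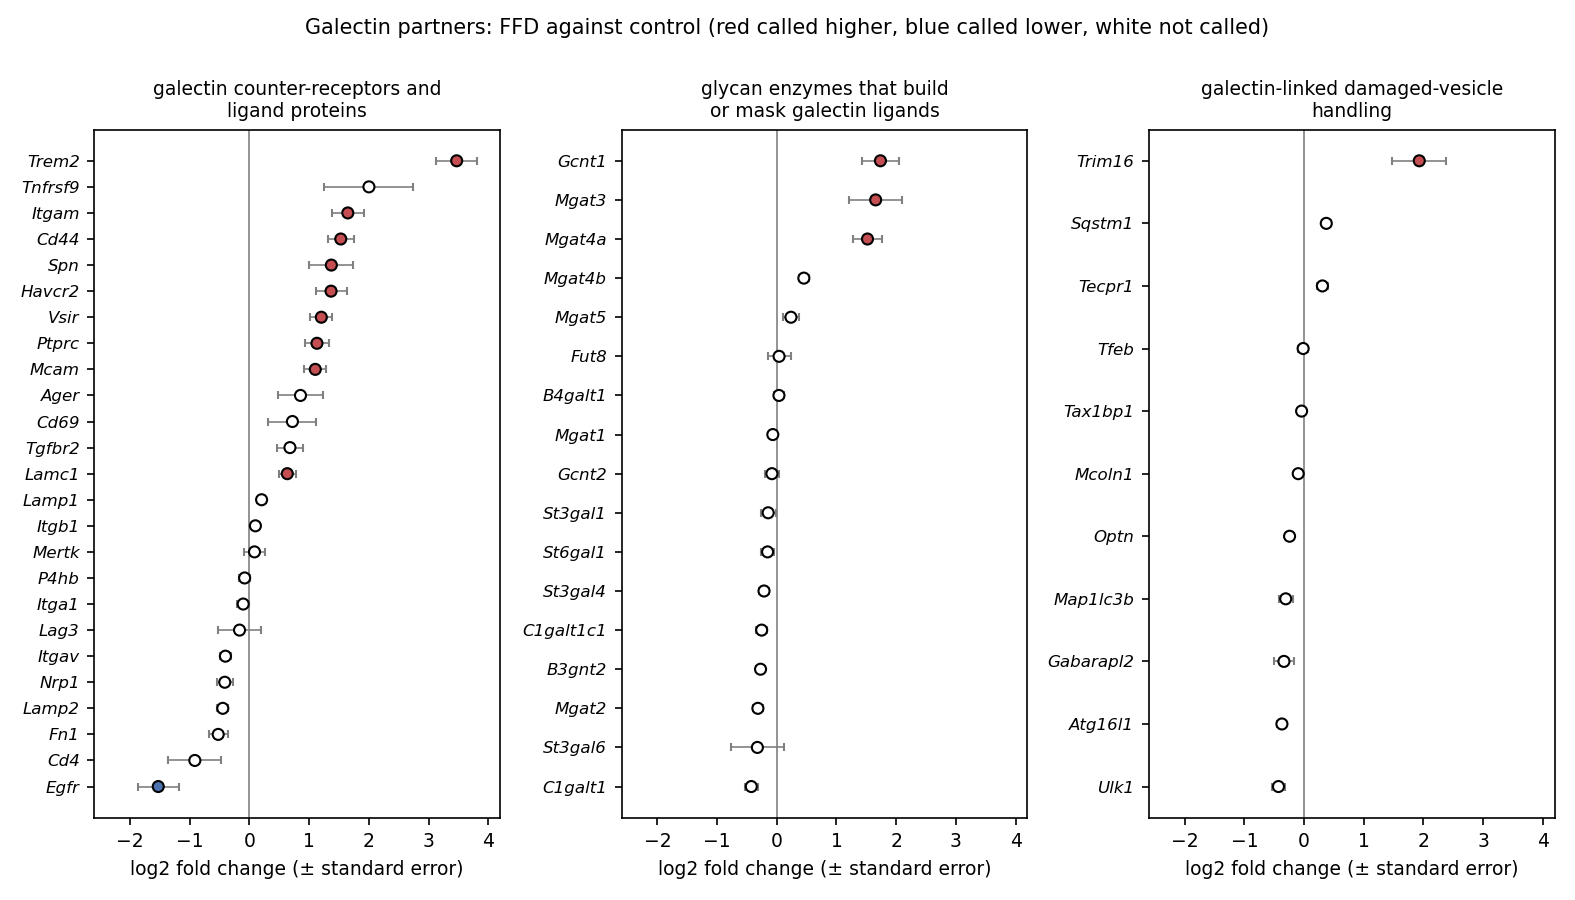
Log2 fold change, FFD against control, with its standard error, for the tested counter-receptors and ligand proteins (25), glycan enzymes (17) and genes of damaged-vesicle handling (11), red where called higher, blue where called lower and white where not called. Trem2 lies highest at 3.47 and Egfr lowest at -1.53.

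Variation between libraries of 1 diet and set was also compared with the marker lists, after subtracting the mean of each diet and set from log2(CPM + 1). Of 72 relations of a member with a list, 3 passed a Benjamini-Hochberg adjusted p of 0.05. Lgals3bp varied with the summed level of 10 interferon-stimulated genes over 24 libraries (Pearson r = 0.667, permutation p = 0.00012, adjusted p = 0.00864; Spearman rho = 0.736, permutation p = 0.00013, adjusted p = 0.00936). Without the 2 libraries farthest in the list, r was 0.647, and within the 4 groups of diet and set, of 6 libraries each, it was 0.827, 0.754, 0.625 and 0.662. Of the 10 interferon-stimulated genes, 2 were called higher on the FFD, Oasl2 (log2 fold change 1.44) and Mx1 (0.89), while 7 were called with library totals in place of TMM.

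Lgals1 varied with the same list (r = 0.719, permutation p = 0.00168, adjusted p = 0.0403; rho = 0.717, permutation p = 0.00122, adjusted p = 0.0439), and r was 0.582 without the 2 farthest libraries. Within groups r was 0.923 and 0.82 in the control libraries with Xist above and below, and 0.256 and 0.0734 in the FFD libraries. Each of these values rests on 6 libraries, and a difference between the diets in this relation was not tested. Lgals3 varied with activated stellate cell and myofibroblast markers (r = 0.737, permutation p = 0.00056, adjusted p = 0.0202; rho = 0.634, permutation p = 0.00193, adjusted p = 0.0463). Control replicates 11 and 6 had the highest values, and without them r was 0.524. Within groups r was 0.971 and 0.874 in control libraries with Xist above and below, 0.816 in FFD libraries with Xist above and 0.186 in FFD libraries with Xist below. Its relation with the macrophage list had r = 0.304 (permutation p = 0.219, adjusted p = 0.458; rho = 0.393, permutation p = 0.0914, adjusted p = 0.397). That list is a sum of CPM, so its most abundant genes weigh most. In control libraries these were Fabp5, which was called lower (102 ± 77.4 CPM, SD), and Spp1 (43.5 ± 27.9), while Trem2 was at 1.72 ± 1.38. In FFD libraries they were Spp1 (268 ± 216 CPM, SD) and Lpl (135 ± 57.9), while Trem2 was at 19.4 ± 8.29. Whether Lgals3 varied with the scarcer macrophage markers was not tested. Of 15 pairs of members 0 passed after adjustment and 5 had an unadjusted permutation p under 0.05, among them Lgals1 with Lgals3 (r = 0.603, permutation p = 0.00835, adjusted p = 0.0626; rho = 0.37, permutation p = 0.1, adjusted p = 0.251).

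**Figure D4:**
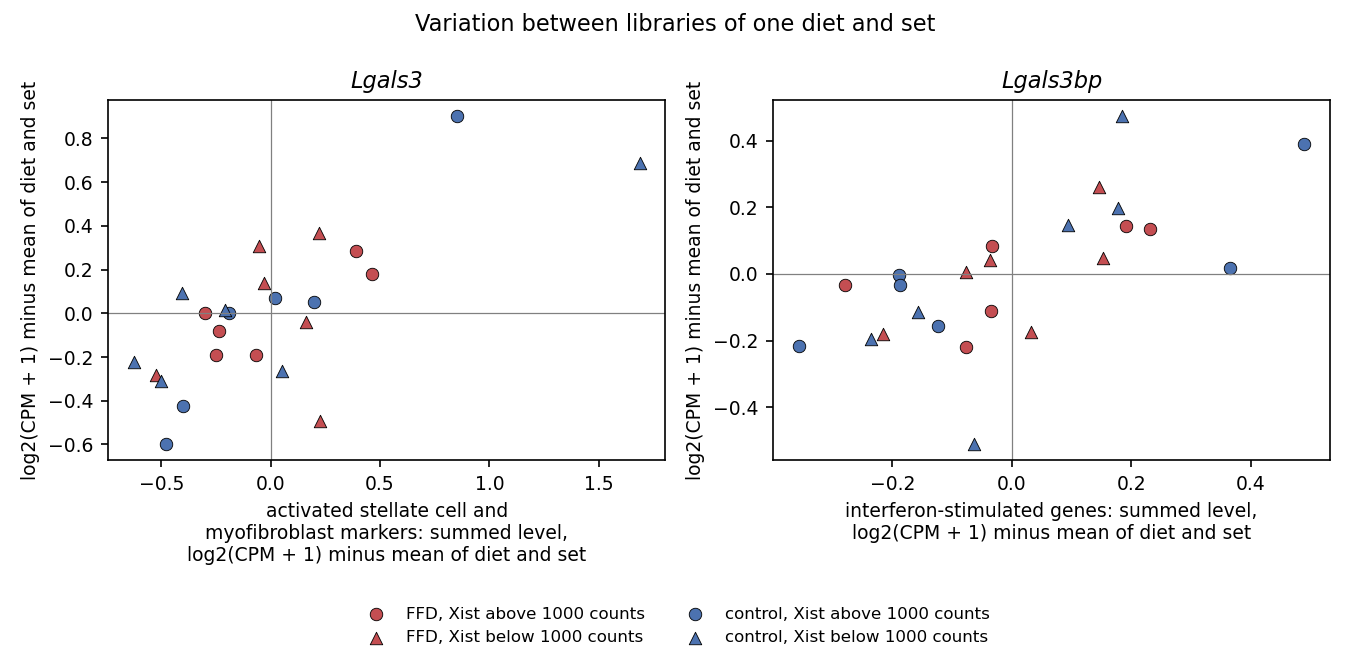
Lgals3 against the summed activated stellate cell and myofibroblast markers (left) and Lgals3bp against the summed interferon-stimulated genes (right), both axes in log2(CPM + 1) minus the mean of the library's diet and set, 1 point for each of 24 libraries. Pearson r is 0.737 on the left, where 2 control libraries lie far to the right, and 0.667 on the right.

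Single genes whose levels varied most like those of a called member, in the same residuals and among 13786 genes with a mean of at least 10 counts, are given as a description. For Lgals1 these were Wfdc2 (r = 0.924), Anxa7 (0.904) and Mogat1 (0.893). For Lgals3 they were Cyth4 (0.864), Fez2 (0.854) and the actin-capping Capg (0.851). For Lgals3bp they were the actin regulator Wdr1 (0.906), Fam129a (0.881) and the interferon-induced Ifit2 (0.88). All 24 points share their library's depth and scaling.

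The bases before the RefSeq transcription start are shown for 3 members. The stretches of Lgals3bp and Lgals9 hold the letters of an interferon regulatory factor core, and those of Lgals3, Lgals4 and Lgals8 do not. Lgals3 is shown as a called member without them. Sequences are from RefSeq (GRCm38.p6), 250 bases before the start on the gene's strand, and 5 of the 6 members had an entry, Lgals1 not. Capitals mark matches to AAANNGAAA on either strand. The motifs were chosen after the sequences had been read.
Lgals3bp: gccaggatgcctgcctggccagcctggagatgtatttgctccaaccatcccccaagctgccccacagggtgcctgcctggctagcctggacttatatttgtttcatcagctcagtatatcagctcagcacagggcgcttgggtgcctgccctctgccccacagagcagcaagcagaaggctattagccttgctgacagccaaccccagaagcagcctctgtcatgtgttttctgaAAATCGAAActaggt
Lgals9: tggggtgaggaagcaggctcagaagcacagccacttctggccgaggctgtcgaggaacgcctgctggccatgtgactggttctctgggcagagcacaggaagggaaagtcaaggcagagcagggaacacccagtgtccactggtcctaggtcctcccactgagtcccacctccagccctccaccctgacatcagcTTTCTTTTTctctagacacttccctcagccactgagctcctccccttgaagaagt
Lgals3: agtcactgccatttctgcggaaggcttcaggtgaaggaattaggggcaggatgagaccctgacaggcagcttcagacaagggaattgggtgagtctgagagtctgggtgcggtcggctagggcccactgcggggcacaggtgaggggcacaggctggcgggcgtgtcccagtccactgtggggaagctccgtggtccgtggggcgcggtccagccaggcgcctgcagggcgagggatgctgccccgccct

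These stretches lie at chr11:118401960-118402209 (minus strand) for Lgals3bp, chr11:78984925-78985174 (minus strand) for Lgals9 and chr14:47373610-47373859 (plus strand) for Lgals3. Of their 250 bases, 133 in Lgals3bp, 22 in Lgals9 and 250 in Lgals3 lie inside the gene span that GENCODE M21 gives, which starts farther upstream than RefSeq's. The match in Lgals3bp, AAATCGAAA, begins 15 bases before the RefSeq start and lies inside the GENCODE span, and that in Lgals9, TTTCTTTTT, begins 55 bases before the RefSeq start and lies outside the span. Such a match was present in 9.37% of 32851 promoter stretches of this length. The AP-1 letters TGANTCA (6.75% of stretches) and the PU.1 letters GAGGAAGT (2.44%), searched on both strands, were in none of the 5 member stretches. A match is a description of letters: Lgals9 holds one and its relation with the interferon list had r = 0.132 (permutation p = 0.534, adjusted p = 0.713; rho = 0.119, permutation p = 0.597, adjusted p = 0.851).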

How the data were processed

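Whole-number counts per Ensembl gene for 24 libraries were deposited by the authors as 1 raw table, not normalized. The submitters' processing notes name STAR 2.7.3a, bcl2fastq and mm10. The study's supplement names an exon quantification pipeline with STAR and PISCES for a human reference, and the counting program and annotation for the mouse libraries are not given in the sources used here. Symbols from GENCODE M21 matched 51745 of 56205 IDs, and the others held 0.0723% of counts. Diets came from the labels, and the libraries are taken as separate mice from the design text. The 17913 genes counted at least once in 12 or more libraries were fitted in edgeR 4.0.16 under R 4.3.3 (TMM, diet alone as term, quasi-likelihood test, Benjamini-Hochberg adjustment). Calls used the thresholds of the study, an adjusted p no higher than 0.01 and a log2 fold change past 0.5 in size. For human liver the study applied them in DESeq2 with sex as a covariate, while the fit here had diet alone. Standard errors are the size of the log2 fold change over the square root of F. Depth of 14468418 to 22112552 counts per library gave each member at least 36 counts in every library. The fits were tested on simulated counts. Relations used permutation within diet and library set. Alternatives were DESeq2 1.42.0, limma-voom (limma 3.58.1), other scalings and filters, the replicate number as a block, library sets, each library left out, another pseudocount, and relations with diet means alone. Named genes were the members, the genes of fixed lists and the 3 genes nearest each called member. The members, lists and library sets were chosen with earlier results of these data known.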

Additional observations from a re-analysis of the deposited data

Results flagged for a closer look

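The diet effect on Lgals3 differed between the 2 library sets: the log2 fold change in libraries with Xist below 1000 counts exceeded that in libraries with Xist above by 2.21 (edgeR's interaction test, Benjamini-Hochberg adjusted p = 0.000167; 2.23 and 1.42e-08 with DESeq2). Every FFD library was higher than every control library in both sets. In FFD libraries the summed macrophage markers were at 368 to 473 CPM with Xist above and 650 to 1344 with Xist below, and the summed activated stellate cell markers at 221 to 376 and 416 to 702, and their part in the difference was not tested. The labels assign no sex to a library, and sex and any other difference between replicates 1 to 6 and 7 to 12 cannot be told apart.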

How the results depend on the processing

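Under the 8 alternatives fitted to all 24 libraries, Lgals1, Lgals3 and Lgals3bp stayed called higher, with log2 fold changes of 1.42 to 1.79, 2.79 to 3.14 and 0.78 to 1.07. The same held in all 24 fits that left out 1 library, at 1.39 to 1.64, 2.76 to 3.06 and 0.74 to 0.84. Lgals4 ranged from -0.52 to -0.38 in those fits and was called lower only without FFD replicate 3, so the number of members called lower ranged from 0 to 1. Library totals in place of TMM turned Lgals8 to 0.11 and Lgals9 to 0.10, and raised the count of all genes called higher from 2372 to 3827 and cut the count called lower from 894 to 226. Restricting the fit to the 12 libraries with Xist above 1000 counts turned Lgals8 to 0.10 and left 1 member called higher, as Lgals1 (1.12) and Lgals3bp (0.47) no longer passed. Restricting it to those with Xist below made Lgals4 (-0.65) the 1 member called lower. Both restrictions also leave fewer libraries. DESeq2 moved the difference of the Lgals3bp effect between the sets, 0.67, past the threshold. With diet means alone subtracted, the relation of Lgals1 with interferon-stimulated genes fell to r = 0.362 (adjusted p = 0.3). With replicate number as a block, the log2 fold changes were 1.65 for Lgals1, 2.85 for Lgals3, 0.80 for Lgals3bp and -0.47 for Lgals4, with 3 members called higher and 0 lower. Same-numbered libraries also share a library set, and no label gives them a common litter or batch. The correlation of their deviations from diet means was 0.147 to 0.529 for 11 numbers and -0.0923 for replicate 9. With set means also subtracted it was -0.258 to 0.238, and 2 of 12 FFD libraries correlated best with the control library of their number. Depth left Lgals2, Lgals7, Lgals12 and Grifin with at most 6 counts in any library, too shallow for a firm comparison. Of these only Lgals2 was tested, and it was not called.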
